A study of Rattus norvegicus with 8 samples.

Results

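Semaphorins, plexins, ephrins and Eph receptors are the ligands and receptors of a pair of guidance systems that axons and blood vessels share. Genes were taken by symbol (Sema followed by a digit, Plxn, Efna, Efnb, Epha or Ephb) among the array probes whose accession matched a RefSeq symbol, which gave 37 genes, 24 of them ligands and 13 receptors, out of 15159 symbols on the array. Of these, 32 genes (22 ligands and 10 receptors) carried the scanner's flag for a signal well above background on 4 or more of the 8 arrays and were tested among 19149 genes. Of the 19149, 11453 had a symbol and 7696 were accessions without one, each counted as a gene. Whether some of these accessions belong to named genes was not checked. Shares of all genes are over the 19149. The RefSeq table lists 52 genes of these names. The other 15, among them Ephb4, Plxnd1, Plxna1, Plxnb1, Plxnc1, Sema3f and Sema6a, had no matched probe and were not analysed here, so the venous mark Ephb4 has no value.

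The samples were lung endothelial cells of Sprague-Dawley rats aged 8 to 10 weeks, taken 5 days after a subcutaneous injection. In the monocrotaline group 4 rats had received 60 mg/kg of monocrotaline, a plant alkaloid that injures lung vessels and brings on pulmonary hypertension in rats, and in the saline group 4 rats had received saline. Cells were pulled out of collagenase-digested whole lung with beads against CD31, which platelets and some leukocytes carry too, and their RNA, extracted with no culture step, was read on 1 array per rat. The comparison asks which endothelial genes differ at this early stage of the disease model.

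Class 3 semaphorins are secreted and signal through plexins, most of them with a neuropilin as co-receptor, while the other semaphorins are held on the cell surface. Plexins act on the cytoskeleton and on integrin adhesion. Ephrin-A ligands have a lipid anchor and ephrin-B ligands span the membrane. Both bind Eph receptor tyrosine kinases on neighbouring cells and signal in either direction. In mouse embryos ephrin-B2 marks arterial endothelium and EphB4 marks venous endothelium.

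The label of the cells was checked against 14 endothelial markers, of which 12 were measured, and all 12 were well above background on all 8 arrays. Markers of other cells were present too, among them 11 of 12 macrophage, 17 of 18 T and NK cell and 10 of 12 fibroblast and mesothelial genes measured. Of 13 dividing-cell genes 11 rose (median log2 fold change 2.02), and of 8 airway genes 0 passed the test but 7 were positive and 4 had an unadjusted p under 0.05 (median 1.98). The airway mean, set against saline, was 2.91, 0.39, 2.99 and 0.56 on monocrotaline replicates 1 to 4. On saline replicates 1 to 4 it was 0.68, -1.06, 0.35 and 0.03, so monocrotaline replicates 2 and 4 lay within the saline range. The log2 of the summed endothelial signals was 7.17 to 7.96 on monocrotaline arrays and 7.82 to 8.31 on saline arrays. Every one of the 12 endothelial markers had a negative log2 fold change (median -0.50, 0 of 12 passing the test). Relative to saline, the mean over the endothelial markers was -0.38, -0.07, -0.81 and -0.83 on monocrotaline replicates 1 to 4 and -0.11, -0.26, 0.00 and 0.37 on saline replicates 1 to 4, so monocrotaline replicate 2 lay among the saline arrays. In such mixed samples fewer cells of a type and less RNA per cell cannot be told apart. All arrays lay on 1 slide, monocrotaline in row 2 and saline in row 1, so slide row and group cannot be told apart either. Arrays of the same replicate number also shared a slide column, which thus held 1 array of each group. With the column as a block, 0 of all genes rose and 0 fell in limma (1036 higher and 834 lower at an unadjusted p under 0.05), and of the guidance genes 1 was higher and 5 were lower at that p.

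No guidance gene passed the test at 4 arrays per group, and the ligands were lower on average after monocrotaline. The median log2 fold change was -0.67 over the 6 ephrins and -0.16 over the 16 semaphorins. Set against saline, the mean over the ligands was -0.20, 0.07, -0.30 and -0.38 on monocrotaline replicates 1 to 4. On the saline arrays it was -0.18 to 0.24, so monocrotaline replicate 2 lay within the saline range. With limma over all genes, 0 of 32 guidance genes rose and 0 fell at a Benjamini-Hochberg adjusted p under 0.05. Of all genes, 1.43% were called: 262 rose (1.37%) and 12 fell (0.0627%). At an unadjusted p under 0.05, 1 of 32 was higher (6.72% of all genes) and 6 of 32 were lower (7.22% of all genes), and the 6 were all ligands. Among the 6, Efna2 was well above background on 4 saline arrays but only 2 monocrotaline arrays. The saline arrays alone thus carried it through the filter. The median log2 fold change was -0.22 over the 22 ligands, 0.03 over the 10 receptors and -0.03 over all genes. The 4 monocrotaline arrays lay wholly above the 4 saline arrays for 1 guidance gene (4.55% of all genes) and wholly below them for 0 (3.99% of all genes). All log2 fold changes are monocrotaline minus saline, and signals are log2 values from which the array's own 75th percentile was subtracted. Signals of different genes come from different probes and are not ranked against each other.

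**Figure D1:**
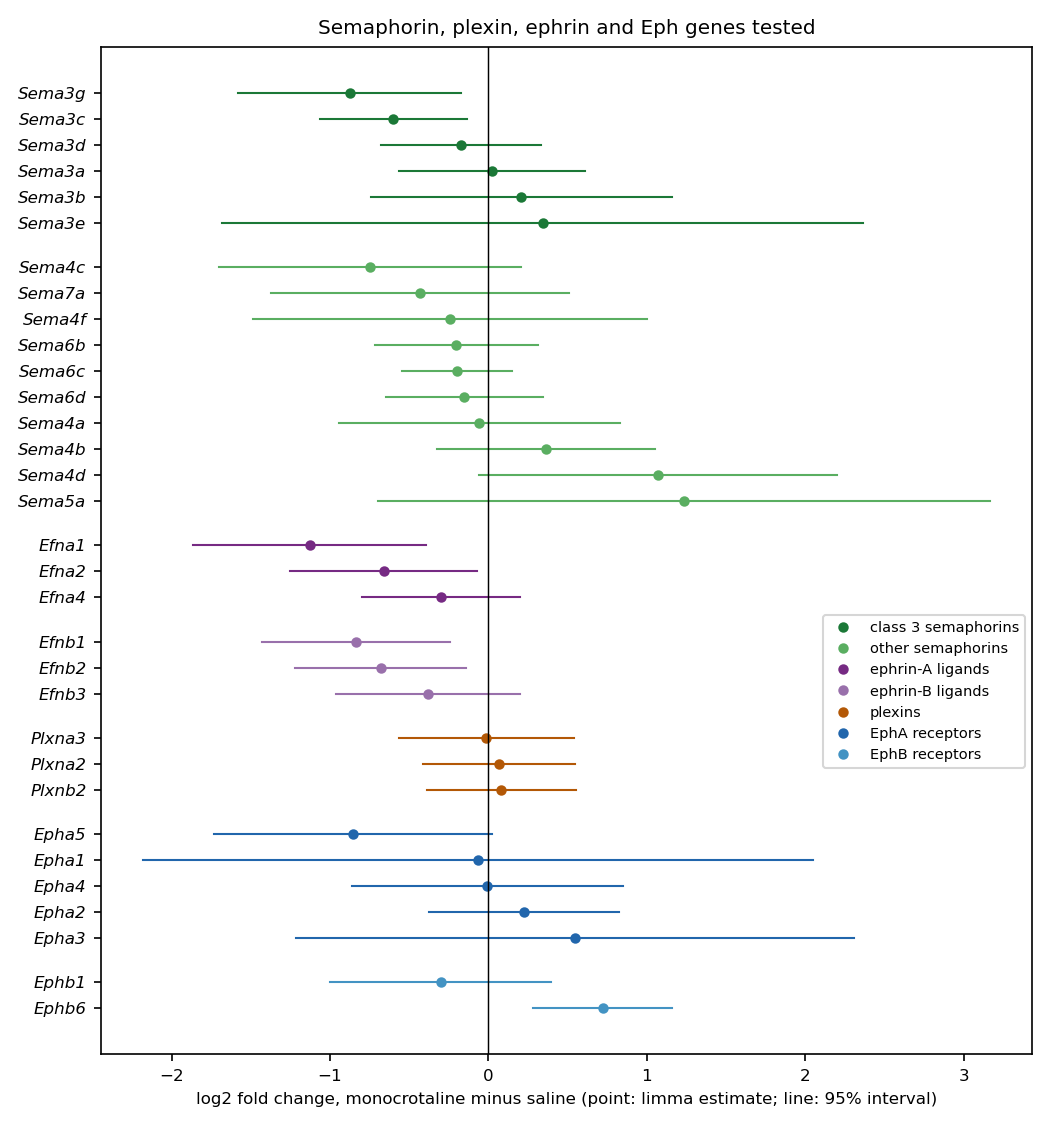
Log2 fold changes (horizontal axis, monocrotaline minus saline) of the 32 tested genes, grouped by role. Points are limma estimates and lines their 95% intervals. All 6 ephrins lie left of 0, and of the receptors only the interval of Ephb6 leaves out 0.

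The ephrins were lower on average in every case: all 6 tested ephrins had a negative log2 fold change, with a median of -0.67. Averaged over the 6 and set against saline, the difference was -0.78, -0.48, -0.69 and -0.71 on monocrotaline replicates 1 to 4 and -0.06, -0.01, 0.00 and 0.07 on saline replicates 1 to 4. The ephrins differed on monocrotaline replicate 2. Efna1, Efnb1 and Efnb2 lay within the saline range there, and Efna2, Efna4 and Efnb3 lay below every saline array. The mean over the 4 monocrotaline arrays was -0.66 for the ephrins and -0.52 for the 12 endothelial markers. Negative values were found for 53.9% of all genes tested. None of the 6 passed the test. The count, the median and the means over the ephrins include Efna2, a dim gene that the saline arrays alone carried through the filter. Its second probe gave -0.10.

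Efna1, the ephrin-A1 ligand that chiefly binds EphA2, had the largest difference among the ephrins. Its scaled log2 signal was 2.57, 3.98, 2.61 and 2.74 on monocrotaline replicates 1 to 4, against 3.95, 3.93, 4.07 and 4.47 on saline replicates 1 to 4. Replicates 1, 3 and 4 of the monocrotaline group lay below every saline array, and replicate 2 lay within the saline range. The difference was -1.13 ± 0.32 on the log2 scale (SE, 4 arrays a group, adjusted p = 0.170 with limma), a signal 2.19-fold lower. Within slide columns, monocrotaline minus saline was -1.38, 0.06, -1.47 and -1.73 for replicates 1 to 4. With monocrotaline replicate 2 left out, the log2 fold change of Efna1 passed the test at -1.47 ± 0.17 (SE, adjusted p = 0.0204 with limma). Replicate 2 was the array far from the other 3, so leaving it out narrows the spread, and this call is no independent support.

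Efna2, another lipid-anchored ligand, was dim and was well above background on 2 monocrotaline arrays and 4 saline arrays. It read -6.50, -6.42, -5.47 and -5.86 on the monocrotaline arrays, against -5.33, -5.17, -5.29 and -5.82 on the saline arrays. The ranges overlapped, since saline replicate 4 lay within the monocrotaline range. The log2 fold change was -0.66 ± 0.26 (SE, limma adjusted p = 0.316), and its second probe gave -0.10. Efna4 had a log2 fold change of -0.30 ± 0.22 (SE, limma adjusted p = 0.578). Efna5 did not pass the filter, being well above background on 1 array of each group.

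Efnb1, a membrane-spanning ligand of EphB receptors, read 0.43, 0.50, -0.09 and -0.16 on the monocrotaline arrays, against 0.90, 0.44, 1.16 and 1.52 on the saline arrays. Saline replicate 2 lay just inside the monocrotaline range and the other 3 saline arrays above it. Its log2 fold change was -0.83 ± 0.26 (SE over 4 arrays a group, limma adjusted p = 0.211). Efnb3, known as a barrier to axons at the midline of the mouse spinal cord, had one of -0.38 ± 0.25 (SE, limma adjusted p = 0.535).

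Efnb2, the arterial mark, read -2.71, -1.63, -2.24 and -2.30 on monocrotaline replicates 1 to 4, against -1.75, -1.37, -1.75 and -1.28 on saline replicates 1 to 4. As with Efna1, 3 monocrotaline arrays lay below every saline array and replicate 2 lay among them. Its log2 fold change was -0.68 ± 0.24 (SE over 4 arrays a group, limma adjusted p = 0.265), with a 95% interval of -1.22 to -0.14 that is not adjusted for the number of genes. Without monocrotaline replicate 2 it was -0.88 ± 0.19 (SE, limma adjusted p = 0.0753).

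**Figure D2:**
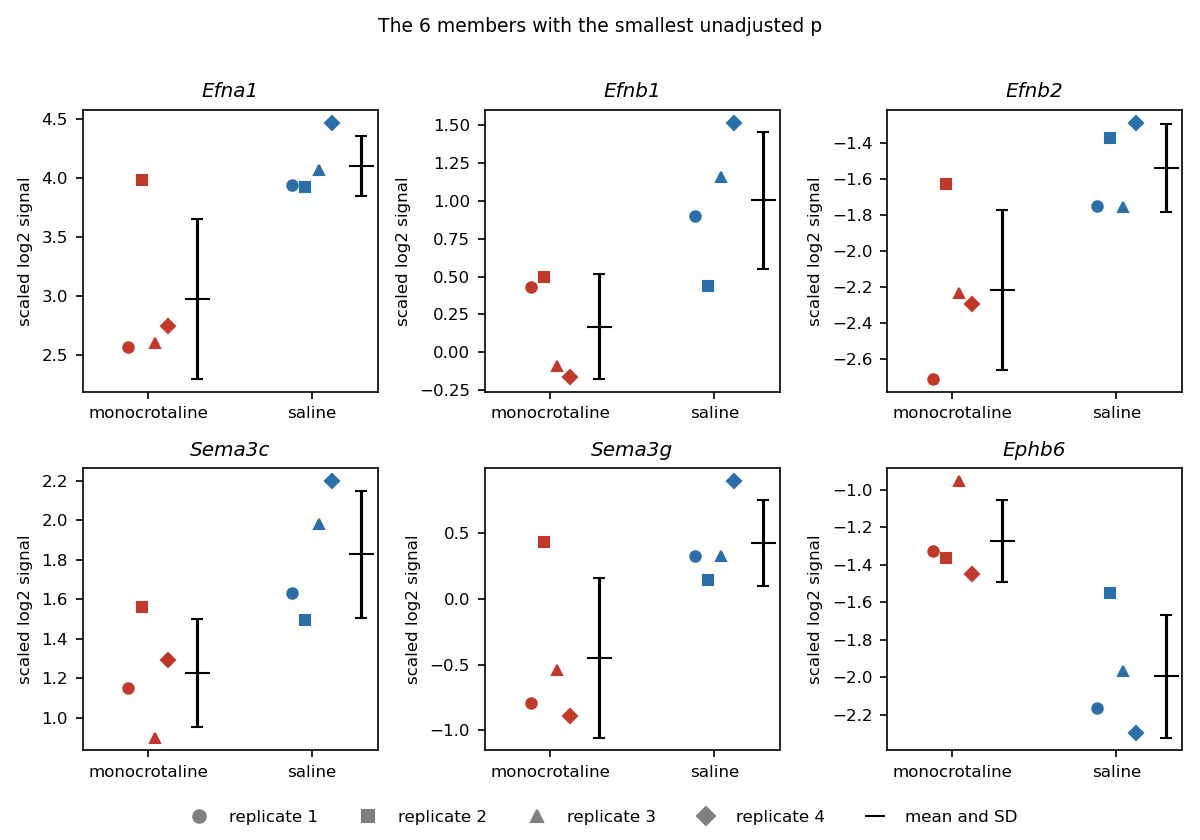
Scaled log2 signal (vertical axis) of the 6 genes with the smallest unadjusted p on each array, monocrotaline left and saline right. Shapes give the replicate number and bars the mean and SD of 4 arrays. Monocrotaline replicate 2 (square) lies within the saline range for the 5 ligands, and the groups are apart for Ephb6 alone.

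Efna1 and Sema3g were called only with monocrotaline replicate 2 left out, Efnb2 is the arterial mark, and Ephb6 had the smallest p. The promoters of these 4 genes are shown. Each is the 250 bases before the gene's start in RefSeq's GRCr8 promoter table, which held 26 of the 32 tested genes. Lines read 5′ to 3′ on the gene's strand, and capitals mark matches, on either strand, to 5 short motifs: the GC box GGGCGG, the CCAAT box, the ETS core AGGAAG, the RBPJ core TGGGAA and TATAAA.
Efna1 (chr2:176986822-176987071, minus strand): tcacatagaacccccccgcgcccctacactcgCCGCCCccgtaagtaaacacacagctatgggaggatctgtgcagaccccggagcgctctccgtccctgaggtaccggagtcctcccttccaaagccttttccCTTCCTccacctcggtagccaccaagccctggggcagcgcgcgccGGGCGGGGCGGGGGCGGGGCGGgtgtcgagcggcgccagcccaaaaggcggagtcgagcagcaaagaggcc
Sema3g (chr16:6419775-6420024, plus strand): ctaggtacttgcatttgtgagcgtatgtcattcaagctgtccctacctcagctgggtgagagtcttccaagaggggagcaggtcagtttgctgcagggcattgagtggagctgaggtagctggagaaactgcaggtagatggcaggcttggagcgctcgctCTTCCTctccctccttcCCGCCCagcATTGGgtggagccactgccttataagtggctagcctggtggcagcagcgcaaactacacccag
Efnb2 (chr16:87484965-87485214, plus strand): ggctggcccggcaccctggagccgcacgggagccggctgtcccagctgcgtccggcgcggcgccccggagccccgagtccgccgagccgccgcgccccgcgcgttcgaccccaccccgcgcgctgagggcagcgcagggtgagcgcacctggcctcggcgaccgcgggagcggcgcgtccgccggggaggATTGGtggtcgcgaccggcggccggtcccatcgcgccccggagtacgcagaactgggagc
Ephb6 (chr4:71458382-71458631, plus strand): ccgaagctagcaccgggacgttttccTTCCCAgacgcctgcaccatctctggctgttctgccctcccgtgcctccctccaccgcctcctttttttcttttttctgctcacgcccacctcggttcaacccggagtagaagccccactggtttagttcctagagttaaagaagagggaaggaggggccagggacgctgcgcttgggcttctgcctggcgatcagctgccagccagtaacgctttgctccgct
The Efna1 window held 5 GC boxes, 4 of them between 71 and 50 bases before the start, where neighbours share or abut their end bases, and 1 ETS core. The Sema3g window held 1 GC box, 1 CCAAT box and 1 ETS core, the Efnb2 window 1 CCAAT box, and the Ephb6 window 1 RBPJ core. Over all 33469 promoters in the table the same 250 bases held a GC box in 30.5%, a CCAAT box in 34.0%, an ETS core in 29.5%, an RBPJ core in 22.1% and TATAAA in 12.9%. These are letter matches only. The ETS and RBPJ cores both contain GGAA, and matches to different motifs may share end bases. The base composition differed, with G and C making up 80.4% of the Efnb2 window, 68.4% of Efna1, 59.2% of Ephb6 and 56.8% of Sema3g, against a median of 51.2% over all promoters.

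Among the 6 class 3 semaphorins tested, Sema3g and Sema3c were lower on average and the other 4 had intervals that spanned 0. Sema3g, which arterial endothelium makes in mice, read -0.80, 0.43, -0.54 and -0.89 on monocrotaline replicates 1 to 4, against 0.33, 0.14, 0.33 and 0.90 on saline replicates 1 to 4. Replicates 1, 3 and 4 of the monocrotaline group were again below every saline array, with replicate 2 among them. Its main probe had a log2 fold change of -0.87 ± 0.31 (SE over 4 arrays a group, limma adjusted p = 0.267), and its second probe gave -0.80. Without monocrotaline replicate 2, Sema3g fell too, with -1.17 ± 0.21 (SE, adjusted p = 0.0426 with limma). This array was the only one of its group inside the saline range, so this call is no independent support either.

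Sema3c, which is needed to divide the outflow tract of the mouse heart, read 1.15, 1.56, 0.90 and 1.29 on the monocrotaline arrays, against 1.63, 1.50, 1.98 and 2.20 on the saline arrays. The ranges met only at monocrotaline replicate 2 and saline replicate 2. Its log2 fold change was -0.60 ± 0.20 (SE over 4 arrays a group, limma adjusted p = 0.253), and its second probe gave -0.47. Sema3d, whose loss misplaces pulmonary veins in mice, had a log2 fold change of -0.18 on its main probe and 0.16 on its second. Sema3a, the neuropilin-1 ligand that collapses axon growth cones, was at 0.02 ± 0.26 and Sema3b at 0.21 ± 0.41 (SE). Sema3e, the ligand that plexin-D1 binds without a neuropilin, was above background on 3 monocrotaline arrays and 2 saline arrays and had a 95% interval of -1.68 to 2.37.

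**Figure D3:**
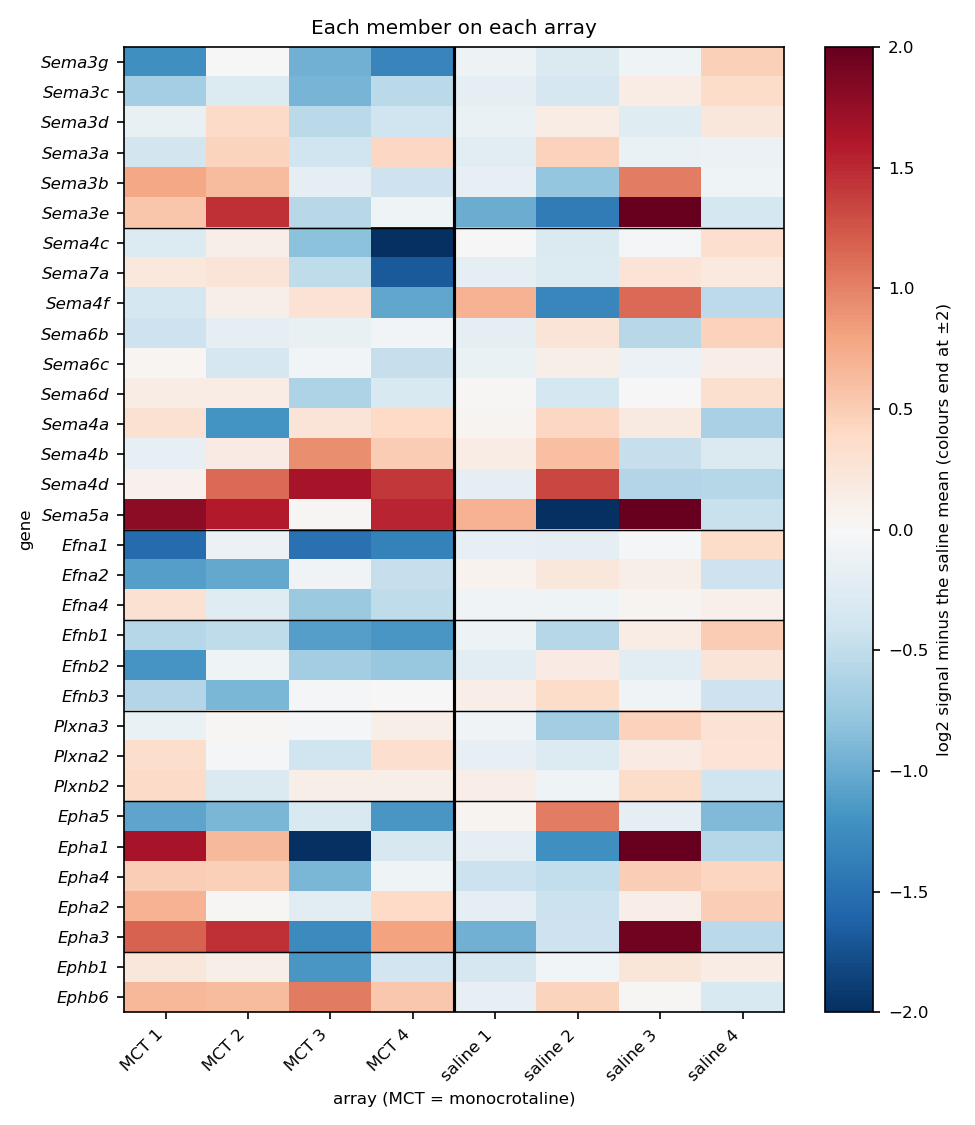
Each tested gene (rows, grouped by role) on each array (columns, monocrotaline left, saline right), as log2 signal minus the gene's saline mean. Blue is lower and red higher. The ephrin rows are mostly blue on the monocrotaline arrays, and Sema3e, Sema5a, Epha1 and Epha3 are deep red on saline replicate 3.

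Of the 10 membrane semaphorins tested, 3 had a positive and 7 a negative log2 fold change, and none reached an unadjusted p under 0.05. Sema6c had a narrow interval: it read 4.21, 3.83, 4.11 and 3.70 on the monocrotaline arrays, against 4.03, 4.28, 4.05 and 4.29 on the saline arrays. The log2 fold change was -0.20 with a 95% interval of -0.55 to 0.15, and its second probe gave 0.06. Sema6b and Sema6d, of the same class of plexin-A ligands, were at -0.20 ± 0.22 and -0.15 ± 0.22 (SE). Sema4c, a ligand of plexin-B2, was at -0.75 ± 0.42 and Sema7a, which binds plexin-C1 and integrins, at -0.43 ± 0.41 (SE). For both, monocrotaline replicate 4 was the lowest array, at -3.48 for Sema4c and -1.53 for Sema7a. Sema4b was at 0.36 ± 0.30 and Sema4f at -0.24 ± 0.54 (SE). Sema4g was below the filter.

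For 3 membrane semaphorins with a wide spread, markers of other cells are given beside the values. Sema4d, the plexin-B1 ligand known as CD100 on T cells, read -3.31, -2.27, -1.75 and -1.99 on monocrotaline replicates 1 to 4, against -3.59, -2.06, -3.98 and -3.97 on saline replicates 1 to 4. Saline replicate 2 was as high as the monocrotaline arrays, so the groups overlapped, and the log2 fold change was 1.07 ± 0.49 (SE over 4 arrays a group, limma adjusted p = 0.383). The mean of 17 T and NK cell markers, 3 of which rose, was 1.48, 1.05, 2.01 and 1.70 above the saline mean on the monocrotaline arrays and 0.31, 0.23, 0.35 and -0.89 on the saline arrays. The log2 of the summed T and NK cell signals was 4.27 to 5.11 on monocrotaline arrays and 2.08 to 3.46 on saline arrays. The mean of 7 of 9 B cell markers was 0.73 on saline replicate 2, the highest saline array, and -0.29 to 1.00 on the monocrotaline arrays. Among the saline arrays, Sema4d was highest on replicate 2 and the T and NK cell mean on replicate 3. Among the monocrotaline arrays, Sema4d and both of these means were highest on replicate 3. The part of these cells in the Sema4d signal was not tested.

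Sema4a, a semaphorin of myeloid cells and T cell costimulation, read 3.14, 1.64, 3.09 and 3.22 on the monocrotaline arrays, against 2.88, 3.24, 3.02 and 2.18 on the saline arrays. Monocrotaline replicate 2 stood below all other arrays, and the mean of 11 macrophage markers was lowest there too, at -1.15, with 0.13 to 0.74 on the other monocrotaline arrays and -0.49 to 0.25 on the saline arrays. The log2 of the summed macrophage signals spanned 6.55 to 7.59 over monocrotaline arrays and 7.15 to 7.87 over saline arrays. The log2 fold change of Sema4a was -0.06 ± 0.39 (SE), and the part of macrophages in it was not tested.

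Sema5a, a semaphorin with thrombospondin repeats, had a positive log2 fold change and one of the widest spreads. It read -2.69, -2.90, -4.46 and -2.97 on the monocrotaline arrays, against -3.79, -6.75, -2.49 and -4.93 on the saline arrays, where saline replicate 3 was the highest of all arrays and saline replicate 2 the lowest. The log2 fold change was 1.23 ± 0.84 (SE over 4 arrays a group, limma adjusted p = 0.550), and it ran between 0.48 without saline replicate 2 and 1.90 without saline replicate 3. The mean of 10 fibroblast and mesothelial markers was 1.60, 1.00, 1.50 and 0.09 on the monocrotaline arrays and 0.61, -1.76, 1.30 and -0.15 on the saline arrays. Their summed log2 signals spanned 5.09 to 6.53 over monocrotaline arrays and 3.42 to 6.25 over saline arrays. On monocrotaline replicate 3, the lowest of its group for Sema5a, that mean was high. The alveolar type 1 and the smooth muscle and pericyte means were lowest of their group there, at -0.88 and -0.31. On saline replicate 3 they were highest of the saline arrays, at 1.45 and 1.19. So were the fibroblast and mesothelial mean, at 1.30, and the alveolar type 2 mean, at 1.38. On monocrotaline replicate 3 the alveolar type 2 mean was 0.69. The part of these cells in the Sema5a signal was not tested.

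Of the 10 receptors, 5 had a positive and 5 a negative log2 fold change, and of the 22 ligands 6 were positive and 16 negative. This difference was not tested. Ephb6, an Eph receptor without kinase activity that human and mouse T cells also express, had the smallest unadjusted p of the 32 genes (0.0052). It read -1.33, -1.36, -0.95 and -1.45 on monocrotaline replicates 1 to 4, against -2.17, -1.55, -1.97 and -2.30 on saline replicates 1 to 4. All 4 monocrotaline arrays lay above all 4 saline arrays, by a gap of 0.10 between monocrotaline replicate 4 and saline replicate 2. This gave a log2 fold change of 0.72 ± 0.19 (SE over 4 arrays a group, limma adjusted p = 0.147), a signal 1.65-fold higher. Within slide columns it was 0.84, 0.19, 1.01 and 0.85 higher for replicates 1 to 4. T and NK cell markers were also higher on all 4 monocrotaline arrays, as given beside Sema4d, and their part in the Ephb6 signal was not tested.

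Ephb1 was at -0.30 ± 0.31 (SE) on its main probe and 0.38 ± 0.37 (SE) on its second, so its direction is not settled. Ephb2 was above background on 1 monocrotaline array and 0 saline arrays and was not tested.

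Epha2, the chief receptor of ephrin-A1, read 3.11, 2.43, 2.18 and 2.81 on the monocrotaline arrays, against 2.21, 1.98, 2.54 and 2.90 on the saline arrays. The groups overlapped through most of their range, and the log2 fold change was 0.22 with a 95% interval of -0.38 to 0.82. Epha5 was at -0.86 ± 0.38 (SE, limma adjusted p = 0.369), with -3.29, -3.14, -2.53 and -3.39 on the monocrotaline arrays, against -2.18, -1.21, -2.42 and -3.12 on the saline arrays. Saline replicate 4 lay inside the monocrotaline range. Epha4, which binds ligands of both ephrin classes, was at -0.01 ± 0.37 (SE).

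Epha1 and Epha3 were dim and spread widely, with 95% intervals of -2.18 to 2.05 and -1.21 to 2.31. Saline replicate 3 was their highest array, at -2.70 for Epha1 and -2.91 for Epha3, as it was for Sema3e at -3.68 and Sema5a. Epha7 was below the filter.

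The 3 plexins tested had log2 fold changes near 0. Plxnb2, which binds class 4 semaphorins, read 0.01, -0.66, -0.27 and -0.27 on the monocrotaline arrays, against -0.25, -0.47, -0.01 and -0.78 on the saline arrays. The ranges overlapped almost fully, and the log2 fold change was 0.08 with a 95% interval of -0.39 to 0.55. For Plxna2 the interval was -0.41 to 0.55 and for Plxna3, a dim gene above background on 2 saline arrays, it was -0.57 to 0.54. Plxnb3 was above background on 0 arrays. With Plxna1, Plxnb1, Plxnc1 and Plxnd1 unmatched, most plexins were not analysed here.

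Among the partners of these systems, 51 of 59 listed genes were tested, 0 rose and 0 fell, and the median log2 fold change was -0.13. At an unadjusted p under 0.05, 2 of 51 were higher and 8 lower, against 6.72% and 7.22% of all genes. Wholly above the saline arrays lay 1 of 51 and wholly below them 4, against 4.55% and 3.99% of all genes. The neuropilins showed no difference beyond their spread: Nrp1 was at -0.24, with a 95% interval of -0.85 to 0.38, and Nrp2 at 0.10, with one of -0.40 to 0.61. Anks1a, an adaptor that binds Eph receptors, was at -0.91 ± 0.21 (SE, limma adjusted p = 0.0996) and read 0.87, 1.46, 0.92 and 0.92 on the monocrotaline arrays, against 1.84, 1.53, 2.05 and 2.38 on the saline arrays. Tiam1, an activator of the GTPase Rac that Eph receptors recruit, was at 1.32 ± 0.31 (SE, limma adjusted p = 0.0997) and was the 1 partner wholly above the saline arrays, while Anks1a was among the 4 wholly below. Tiam1 read -4.07, -5.23, -3.93 and -4.44 on the monocrotaline arrays, against -5.51, -6.03, -5.31 and -6.10 on the saline arrays. It was dim, and was well above background on 4 monocrotaline arrays but only 3 saline arrays. The monocrotaline arrays alone could thus carry it through the filter. Without monocrotaline replicate 2, its lowest monocrotaline array, Tiam1 rose by 1.60 ± 0.24 (SE, limma adjusted p = 0.0277). Both genes were chosen after their values were seen, Tiam1 as the partner called without that array and Anks1a for its p.

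The arterial list held 9 genes beside Efnb2, of which 0 passed the test, 8 had a negative log2 fold change and 4 were lower at an unadjusted p under 0.05 (7.22% of all genes). Their median was -0.43, where that of the 12 endothelial markers was -0.50. Hey1, a Notch target, was at -1.18 ± 0.34 (SE, limma adjusted p = 0.170), Dll4, a Notch ligand, at -0.95 ± 0.38 (SE, limma adjusted p = 0.328) and Sox17, a transcription factor of arterial endothelium, at -0.58 ± 0.22 (SE, limma adjusted p = 0.293). Hey2 had the one positive value, 0.11 ± 0.39 (SE). The mean of these 9 genes was -0.66, 0.17, -0.66 and -0.74 on monocrotaline replicates 1 to 4 and 0.05, -0.17, -0.30 and 0.42 on saline replicates 1 to 4.

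The venous list was read without Ephb4. Of 6 venous genes tested, 0 passed, 4 were negative and 2 positive, and the median was -0.33. At an unadjusted p under 0.05, 2 of the 6 were lower (7.22% of all genes). Slc6a2 had the largest difference of the venous list, at -1.30 ± 0.43 (SE, limma adjusted p = 0.242). Aplnr, the apelin receptor, was at -0.92 ± 0.27 (SE, limma adjusted p = 0.181) and Nr2f2, the transcription factor that sets venous fate, at -0.12 ± 0.26 (SE). The venous mean was -0.31, 0.27, -0.68 and -0.92 on the monocrotaline arrays and 0.01, -0.21, -0.09 and 0.29 on the saline arrays. No test of arterial against venous genes was made.

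**Figure D4:**
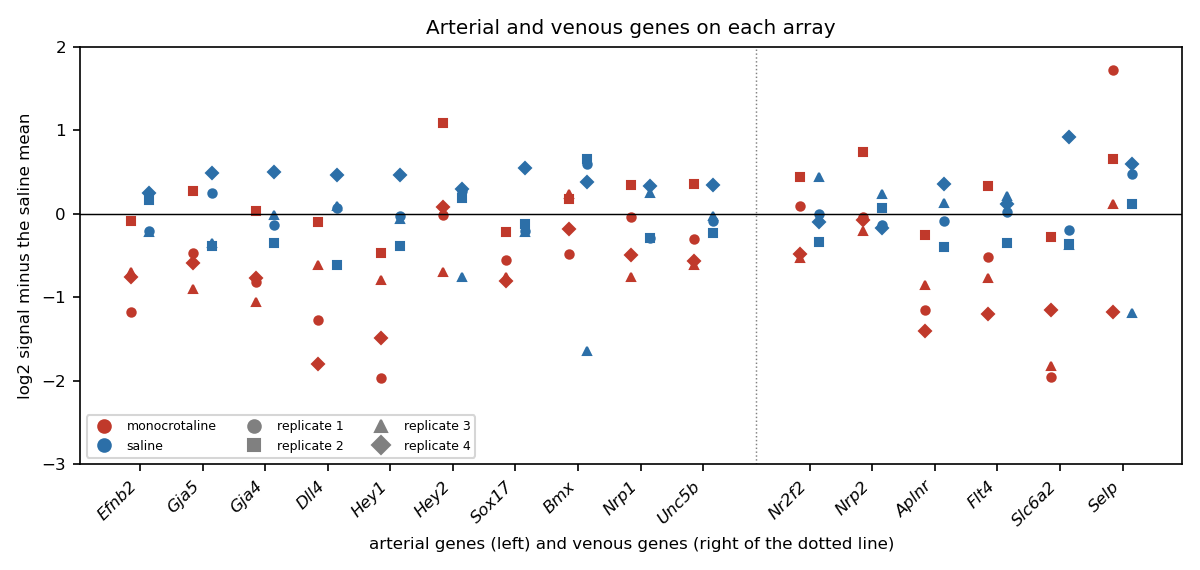
Arterial genes (left) and venous genes (right of the dotted line) on each array, as log2 signal minus the gene's saline mean. Red is monocrotaline and blue is saline, with shapes for the replicate number. Monocrotaline replicate 2 (red square) lies nearest to the saline arrays for Efnb2, Dll4, Hey1, Aplnr and Slc6a2.

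Since endothelial markers as a whole were lower on 3 monocrotaline arrays, each gene was also set against the mean of the 12 endothelial markers on its own array, which raises every log2 fold change by 0.52. On that footing Efna1 read 2.95, 4.05, 3.41 and 3.57 on monocrotaline replicates 1 to 4, against 4.06, 4.19, 4.07 and 4.11 on saline replicates 1 to 4. The saline arrays lay close together and all 4 monocrotaline arrays lay below them, replicate 2 by 0.01, and the difference of means was -0.61. Of all genes, 0.308% lay wholly lower in this way, and Efna1 was the only guidance gene to do so. Sema6d was the only guidance gene wholly higher (10.9% of all genes). The differences became -0.16 for Efnb2, -0.31 for Efnb1, -0.35 for Sema3g and -0.08 for Sema3c, each with overlapping groups. Among the other ephrins the difference was -0.14 for Efna2, 0.22 for Efna4 and 0.14 for Efnb3, so that 4 of 6 ephrins and 8 of 32 guidance genes were negative. For Ephb6 it was 1.24, and its groups then overlapped narrowly, with monocrotaline replicate 2 at -1.2968 and saline replicate 2 at -1.2924. These values are given as a description with no test.

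For 5 ligands, monocrotaline replicate 2 was the only array of its group inside the saline range. These were Efna1, Efnb1, Efnb2, Sema3c and Sema3g, and the other 3 monocrotaline arrays lay below that range. The margin was small for Efnb1, at 0.43 and 0.50 on monocrotaline replicates 1 and 2 against 0.44 on the lowest saline array. Of the 5, only Efna1 was flagged for an array far from the other 3 of its group. In the slide column of replicate 2, monocrotaline minus saline was 0.06 for Efnb1, -0.26 for Efnb2, 0.06 for Sema3c and 0.29 for Sema3g, and in the other 3 columns these 4 genes lay between -1.79 and -0.46. With monocrotaline replicate 2 left out, 2 of 32 guidance genes fell, Efna1 and Sema3g, and 0 rose, where 0.486% of all genes fell and 1.42% rose (1.91% called in all). At an unadjusted p under 0.05, 6 of 32 were lower and 1 higher, against 8.62% and 7.97% of all genes. Wholly below the saline arrays lay 5 of 32 and wholly above them 1 of 32, against 9.15% and 7.09% of all genes. The endothelial markers were lower too: without this array their median went from -0.50 to -0.69. Of these 12 markers, 9 were then lower at an unadjusted p under 0.05 (5 with all arrays). Wholly below the saline arrays lay 4 of the 12, and 0 passed the test. With any one of the other 7 arrays left out, 0 of 32 were called. The reason that this array differs was not tested.

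**Figure D5:**
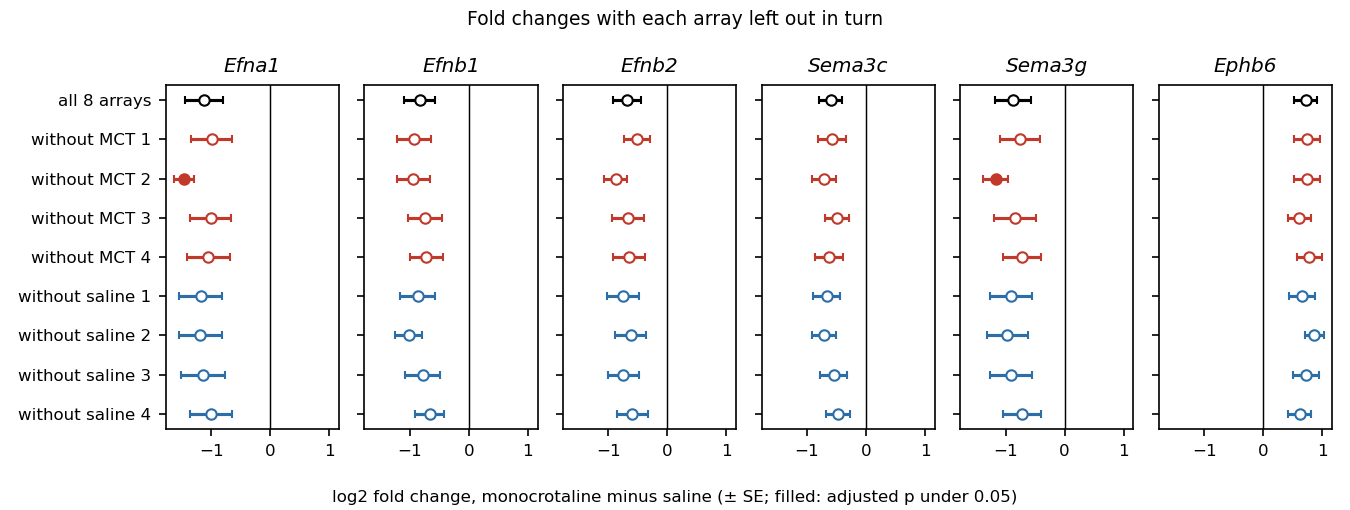
Log2 fold change ± SE (horizontal axis) of 6 genes with all 8 arrays and with each array left out in turn (rows; MCT is monocrotaline). Filled points have an adjusted p under 0.05. Only Efna1 and Sema3g without monocrotaline replicate 2 are filled.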

How the data were processed

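Total RNA (10 ng per sample) was amplified, marked with Cy3 and hybridised to 1-colour arrays, per the labels' protocols. Per the file headers, Agilent Feature Extraction 10.7.3.1 gave each spot a processed intensity and flags, other values of 0 or 1. The deposited table is on a log2 scale taken again: 2 to the power of its values equals the quantile-normalized log2 processed signal (median absolute difference 9.89e-10), and it served as an alternative. The submitters' processing notes name limma 3.6.9.

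Spots of a probe were averaged after 4259 control spots and outlier-flagged spots were left out (17 of 30367 probes lost). Log2 signals were scaled to each array's 75th percentile, and 21664 probes with any spot well above background on at least 4 arrays were kept. The brightest probe stood for a gene. Accessions of 18006 probes matched 15159 symbols (RefSeq, GRCr8). The groups were compared with limma 3.58.1 (R 4.3.3), with Benjamini-Hochberg adjustment over 19149 genes. On simulated data of that many genes, 46 of 100 genes changed by 1 log2 unit and 87 of 100 changed by 2 were called, and 7 of 140 calls were false. The share of spots well above background ran between 70.8% and 77.7%, and 4 arrays per group limit the precision.

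The genes and lists were chosen with earlier results of these data known. Genes given in full were any called, Efnb2 and Ephb4, those with the 8 smallest p, and in each role group the gene with the highest mean signal and the one with the largest change, with Nrp1, Nrp2 and any called partner. Other genes named with values, including Sema4d, Sema4a, Epha1 and Epha3, were chosen after their values were seen. Alternatives covered background correction, scaling, filter, probe rule, variance model, array weights, the replicate number as a block, and each array left out in turn.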

Additional observations from a re-analysis of the deposited data

Results flagged for a closer look

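Of 68 groups of 4 arrays examined (32 guidance genes, Nrp1 and Nrp2 in each treatment), 5 held an array far from the other 3, where chance alone would give about 1 in 20. In the monocrotaline group, replicate 2 was high for Efna1 (3.98, against 2.57 to 2.74 on the others) and for Nrp2 (-3.64, against -4.58 to -4.42), and low for Sema4a (1.64, against 3.09 to 3.22). Monocrotaline replicate 3 was low for Sema5a (-4.46, against -2.97 to -2.69). In the saline group, replicate 2 was high for Sema3a (-2.72, against -3.38 to -3.29). With the far array left out, the log2 fold change became -1.47 for Efna1, -0.11 for Nrp2, 0.32 for Sema4a, 1.64 for Sema5a and 0.17 for Sema3a. Of the 5, 3 were on monocrotaline replicate 2.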

How the results depend on the processing

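The counts over all genes (262 rose and 12 fell) depended on the arrays. With 1 array left out, 11 to 272 genes rose and 0 to 93 fell: 84 and 3 without monocrotaline replicate 1, 272 and 93 without replicate 2, 249 and 5 without replicate 3, 68 and 1 without replicate 4, 11 and 0 without saline replicate 1, 114 and 1 without replicate 2, 106 and 2 without replicate 3, and 110 and 3 without replicate 4. Genes that fell numbered 21 after normexp with either scaling and 59 with array weights. Without monocrotaline replicates 1 and 3, an alternative chosen after seeing the data, 51 rose and 1 fell. With the replicate number, which is also the slide column, as a block, 0 rose and 0 fell over all genes, and the adjusted p was 0.340 for Efna1, 0.335 for Efnb2 and 0.297 for Ephb6. Same-numbered arrays deviated from their group means with correlations of -0.01, -0.23, -0.33 and -0.20, and no array correlated best with its own number, so no pairing beyond the shared slide column was found. The causes were not tested.

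Guidance genes that fell numbered 0 to 2 with 1 array left out, the same 2 being ligands, partners that rose 0 to 1, and both counts were 0 in the 14 other settings. Over all 22 alternatives the log2 fold change was -1.47 to -0.74 for Efna1 (limma adjusted p 0.0204 to 0.527), -1.17 to -0.66 for Sema3g (0.0426 to 0.592), -0.88 to -0.42 for Efnb2 (0.0753 to 0.586), -1.02 to -0.66 for Efnb1 (0.117 to 0.496), -0.71 to -0.40 for Sema3c (0.158 to 0.586) and 0.59 to 0.87 for Ephb6 (0.0520 to 0.444). For Efna2, tested in 21 of them, it was -0.86 to -0.22 (limma adjusted p 0.159 to 0.682).

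Genes near 0 changed sign. Sema3a was -0.032 with quantile normalization, -0.020 with median scaling, -0.00995 with normexp and percentile scaling and -0.064 in the deposited table. Sema3e was -0.26 with normexp and percentile scaling and -0.00329 with normexp and quantile normalization, where Sema4a was 0.00107. In the deposited table Sema4a was 0.015 and Nrp2 -0.016. Ephb1 was 0.039 as the mean of its probes. With array weights Epha1 was 0.041 and Epha4 0.20, and without monocrotaline replicates 1 and 3 Epha1 was 0.17, Epha4 0.19, Plxnb2 -0.085 and Plxna3 0.066. With 1 array left out the values spanned -0.053 to 0.20 for Plxnb2, -0.11 to 0.21 for Nrp2, -0.64 to 0.66 for Epha1, -0.17 to 0.29 for Epha4, -0.031 to 0.22 for Plxna2, -0.24 to 0.14 for Plxna3, -0.12 to 0.17 for Sema3a, -0.053 to 0.55 for Sema3b, -0.12 to 1.26 for Sema3e, -0.27 to 0.32 for Sema4a and -0.68 to 0.13 for Sema4f. Sema5a spanned 0.48 to 1.90, Sema4c -1.04 to -0.33 and Epha5 -1.15 to -0.52. With normexp Sema5a was 0.44 or 0.55, against 0.74 or 0.72 for Sema4d. Dim genes, above background on only some arrays, have the least certain values.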
